A study of Mus musculus with 4 samples.

Results

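Oxidative phosphorylation genes were followed here through single-cell RNA counts of mouse bone and bone marrow. They are the rows whose symbols begin with Nduf, Uqcr, Cox4 to Cox8 or Atp5, the succinate dehydrogenase genes Sdha to Sdhd, and the mitochondrially encoded rows mt-Nd, mt-Co, mt-Cytb and mt-Atp, with pseudogene names left out. The rule took 106 of the 32285 genes in the matrices, of which 93 are nuclear and 13 are mitochondrially encoded, and both sets were kept apart throughout. Of the nuclear genes, 36 belong to complex I, 4 to complex II, 8 to complex III, 20 to complex IV and 17 to complex V. The other 8 nuclear rows start with Ndufaf and name assembly factors of complex I, which are not subunits, so the rule reaches past the subunit genes. Ndufa4, whose protein is found in complex IV, and its paralogue Ndufa4l2 were counted with complex IV, and Cox7a2l is known as a supercomplex factor. The mitochondrial genes fell to complex I with 7, complex III with 1, complex IV with 3 and complex V with 2. Cox7b2 and Cox8c had fewer than 100 unique molecular identifiers (UMIs, each standing for 1 captured transcript) over both libraries and are only counted.

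Bone and marrow cells came from the femora and tibiae of 2 INK-ATTAC mice that had received no treatment, 1 young mouse of 6 months and 1 old mouse of 24 months. INK-ATTAC mice carry an inducible caspase 8 cassette under a p16Ink4a promoter, which stayed unused here because the activating drug was not given. Digested cells were depleted of lineage-positive cells on magnetic columns and stained with an antibody to the surface protein CD24 that carries a barcode. They were then sorted as live CD45-Lin- cells and sequenced from the 3′ end of each transcript. After filters of at least 200 genes and at most 20% of UMIs from mt- rows, 10063 young and 5607 old cells remained. Removal of predicted doublets left 9794 cells in the young library and 5550 in the old library, with medians of 6295.5 and 9667 UMIs per cell. The clusters were placed in 12 classes by markers, 7 of them mesenchymal and 5 of blood, although the sort was meant to remove blood cells, and 3 of 24 clusters stayed unnamed. The 2 libraries shared 19 cell barcodes, which is 0.342% of the old cells. Every value by age therefore compares 1 mouse with another and has no test, and its intervals cover counting error only. Where classes or CD24 groups were tested, the replicates were the sums of each mouse, with mouse as a block. Those p-values therefore measure how far differences between groups departed between 2 mice of different age. They do not measure the spread between the mice themselves, which the block takes out.

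Oxidative phosphorylation is the route by which mitochondria turn the electrons of nutrients into ATP. Complex I takes electrons from NADH and complex II from succinate, complex III passes them to cytochrome c, and complex IV hands them to oxygen, while the proton gradient that complexes I, III and IV build drives the ATP synthase, complex V. Complex II is made only of nuclear gene products, whereas the other complexes mix nuclear subunits with core subunits that the mitochondrial genome encodes, so their assembly draws on both genomes. Bone cells are known to lean on this route to different degrees, since chondrocytes of avascular cartilage are largely glycolytic and maturing erythroid cells lose their mitochondria. Several complex IV subunits exist as paralogues with a tissue-restricted form, such as the muscle and heart forms Cox6a2, Cox7a1 and Cox8b, the lung and hypoxia form Cox4i2, the germ line form Cox6b2 and the hypoxia-induced Ndufa4l2.

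The share of all UMIs that fell on the 93 nuclear genes ordered the classes with the same extremes in both libraries. It was highest in the megakaryocyte-like class, at 3.63% (95% interval 3.60 to 3.67) in the young library and 3.54% (95% interval 3.50 to 3.57) in the old library, by exact binomial intervals. The erythroid-like class held 3.35% and 2.91%, the progenitor-like class 3.32% and 3.22%, the pericyte or smooth muscle-like class 2.89% and 2.90% and the B lineage-like class 2.86% and 2.74%. The erythroid-like and progenitor-like ranges overlapped, so their order is not fixed by these 2 mice. The joint lining-like class followed with 1.98% and 1.79%, above tendon or periosteum-like cells with 1.77% and 1.70%. The osteoblast-like class had 1.71% and 1.74%, the stromal-like class 1.75% and 1.62% and the fibroblast-like class 1.67% and 1.63%, where the stromal-like range overlapped both others and the osteoblast-like values lay above the fibroblast-like ones. The chondrocyte-like class lay below them at 1.49% and 1.55%, and the neutrophil-like class was lowest at 1.18% and 0.806%.

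The mitochondrially encoded set took a larger share of UMIs than the nuclear set in every mesenchymal class, and it followed a different order. It was highest in the erythroid-like class, with 4.93% and 4.70% of UMIs in the young and old libraries, and in the pericyte or smooth muscle-like class, with 4.81% and 4.01%, and these overlapped. Osteoblast-like cells had 3.44% and 3.33%, stromal-like cells 3.07% and 3.04%, fibroblast-like cells 2.80% and 2.43% and chondrocyte-like cells 2.41% and 2.28%. The megakaryocyte-like class stood apart at 0.267% and 0.280%, although its nuclear share was the highest of all. Its cells held 13.6 and 12.6 nuclear UMIs of these genes for each mitochondrial UMI, against 0.571 and 0.534 in the stromal-like class. Per cell, the median mitochondrial share was 0.0283% and 0.0830%, from medians of 3.00 and 6.50 mitochondrial UMIs. No mitochondrial UMI was seen in 8.96% of the 67 young and 11.5% of the 52 old megakaryocyte-like cells (exact 95% intervals 3.36 to 18.5 and 4.35 to 23.4), at median depths of 10566 and 10514 UMIs. This class was looked at after its values were seen and has no test. Because the cell filter itself caps mitochondrial UMIs at 20%, high values of the mitochondrial set are cut off, and of the 12 named classes the erythroid-like class had the largest share of kept cells over 10%. It was 25.6% and 26.0% of its cells in the young and old libraries, against 5.46% and 7.08% of stromal-like cells. Of those 152 young and 123 old stromal-like cells over 10%, 127 and 104 lay in the shallowest stromal-like cluster, of 226 and 183 cells. That cluster had mitochondrial shares of 9.19% and 9.34% and nuclear shares of 0.569% and 0.456%, at medians of 1447 and 2031 UMIs. The stromal-like level, the reference of the class comparisons, therefore also describes a mixture. The neutrophil-like class was uneven, since its 2 clusters had median mitochondrial shares of 0.369% and 0.378% in the first and 2.11% and 1.65% in the second, so its summed level describes a mixture.

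**Figure D1:**
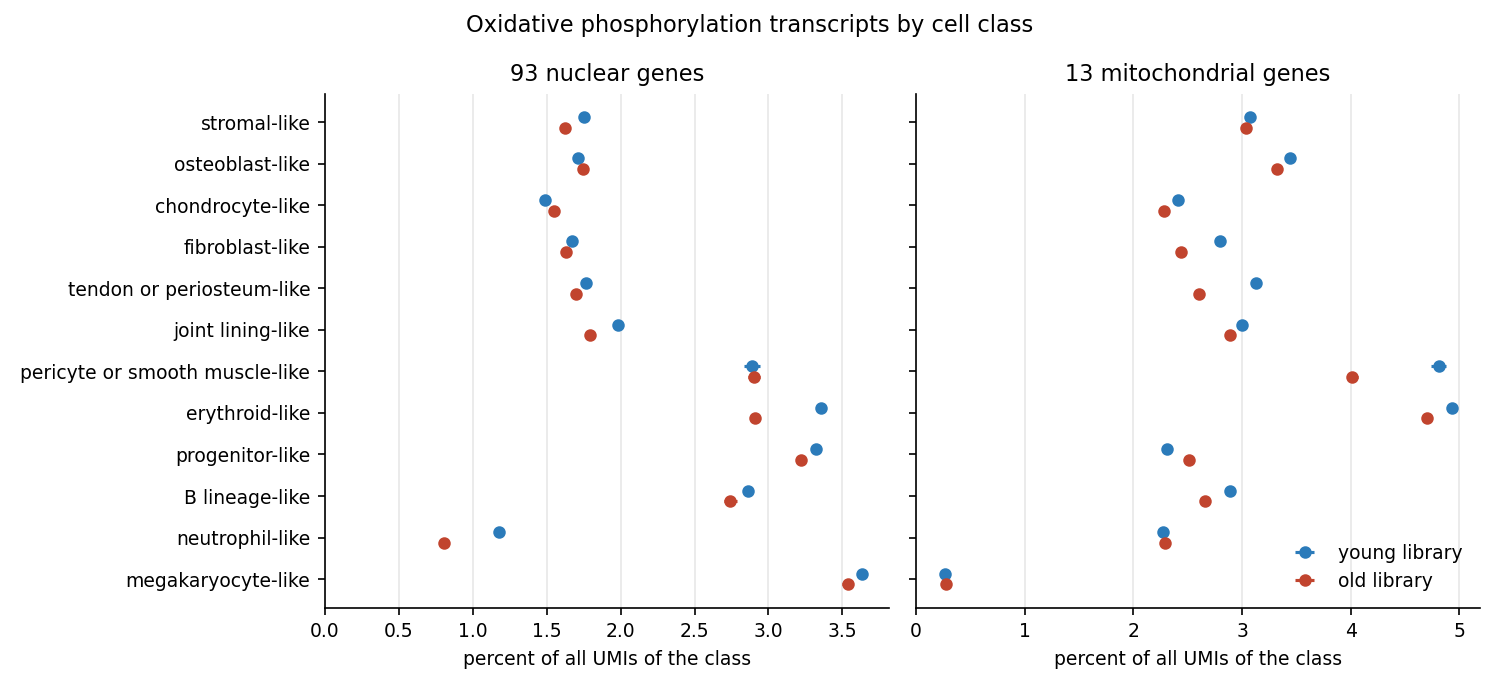
Percent of all UMIs in each of the 12 classes that came from the 93 nuclear (left) and the 13 mitochondrial genes (right), 1 point per library with its exact 95% binomial interval, which is mostly narrower than the point. Megakaryocyte-like cells sit at the right end of the nuclear panel (3.63% and 3.54%) and at the left end of the mitochondrial panel (0.267% and 0.280%).

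To compare the members between classes, UMIs were summed per mouse and class and 7 classes were each set against the stromal-like class in 1 edgeR quasi-likelihood fit of 24 sums with mouse as a block. The 7 comparisons share the stromal-like sums, so their results are not independent of each other. A member is called higher or lower at a Benjamini-Hochberg adjusted p under 0.05 over the 14750 genes tested, and 104 of the 106 members were tested, all but Cox7b2 and Cox8c. The members were kept out of the genes that made the clusters, but the classes were drawn from the same cells, so the share of all genes called is printed beside each count. Levels are given in CPM, a gene's UMIs for each 1000000 UMIs of the class, and changes as edgeR's log2 values after its scaling of the sums.

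In the pericyte or smooth muscle-like class, which rests on 72 young and 70 old cells, nearly the whole nuclear set was raised. In it, 74 of the 91 tested nuclear members were higher and 1 lower, where 12.5% and 13.7% of all genes were called higher and lower. The median log2 change of the nuclear members was 0.83, which is 1.12 above the median of all genes, and on the CPM scale the young mouse gave 0.67 and the old one 0.79. By complex, 31 of 36 tested genes of complex I, 4 of 4 of complex II, 8 of 8 of complex III, 14 of 18 of complex IV and 16 of 17 of complex V were higher, but only 1 of the 8 Ndufaf assembly factors, Ndufaf4.

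Atp5b, the catalytic beta subunit of the ATP synthase, was at 671 CPM in the young and 653 CPM in the old library, against 249 and 237 CPM in stromal-like cells (log2 change 1.56, SE 0.16, edgeR adjusted p = 5.62e-07). Ndufa12, an accessory subunit of complex I, had 195 and 219 CPM against 76.7 and 75.5 CPM (log2 change 1.56, SE 0.15, edgeR adjusted p = 2.06e-07). For both genes the pericyte-like values of both mice lay above both stromal-like values. The 4 genes of complex II, the succinate dehydrogenase that joins the respiratory chain to the tricarboxylic acid (TCA) cycle, rose by log2 values of 0.50 (Sdha), 0.96 (Sdhb), 1.53 (Sdhc) and 0.68 (Sdhd). The hypoxia-linked isoforms Ndufa4l2 and Cox4i2 rose by 3.21 and 2.56. Cox7a1, the muscle and heart form of a complex IV subunit, was called with a log2 change of 2.05, but this rested on the old mouse, with 20 UMIs (33.9 CPM) in the old and 1 UMI (2.74 CPM) in the young class, beside 3.22 and 7.27 CPM in stromal-like cells. Ndufs4, an accessory subunit of complex I, was the nuclear member that fell (log2 change -0.92, SE 0.17, edgeR adjusted p = 4.08e-04), from 140.4 and 134 CPM in stromal-like to 71.3 and 64.4 CPM in pericyte-like cells.

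Of the 13 mitochondrial genes, 6 were higher and none lower in the pericyte or smooth muscle-like class, namely mt-Nd1, mt-Nd2, mt-Nd3, mt-Nd4l, mt-Co1 and mt-Co3, with a median log2 change of 0.56. mt-Co1, the catalytic core of complex IV, had the highest change, from 3943 and 4092 CPM to 7503 and 6719 CPM (log2 change 0.95, SE 0.24, edgeR adjusted p = 0.00654). The other 7 did not pass and ranged from 0.081 for mt-Atp8 to 0.56 for mt-Atp6. Genes of neighbouring pathways moved with the set: 10 of 13 TCA cycle genes were higher and 0 lower, such as citrate synthase Cs (log2 change 1.44, SE 0.23, edgeR adjusted p = 9.12e-05). Of the electron and nucleotide carriers, 7 of 11 were higher, among them cytochrome c, Cycs (log2 change 1.86, SE 0.26, edgeR adjusted p = 2.60e-05), and of the glycolytic genes 11 of 16. Among regulators of mitochondrial biogenesis, 3 of 11 tested were higher, led by Ppargc1a, a coactivator of mitochondrial genes (log2 change 4.92, SE 0.84, edgeR adjusted p = 2.68e-04). When the sums were scaled by their totals alone, an alternative added after the data were seen, 58 nuclear members were higher and 1 lower. Of the 14750 genes, 1564 were then called higher and 2125 lower.

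In the erythroid-like class, defined by haemoglobin and membrane genes of red cell precursors, 83 of the 91 tested nuclear members were higher and 3 lower, where 30.2% and 40.0% of all genes were called higher and lower. The median change of the nuclear members was 1.28, or 1.64 above the median of all genes. All 17 tested genes of complex V, 8 of 8 of complex III, 4 of 4 of complex II, 34 of 36 of complex I and 7 of 8 Ndufaf genes were higher. Complex IV was split, with 13 of 18 higher and 3 lower. Cox6b2, known as the germ line form of a complex IV subunit, had the highest change, at 206 CPM in the young and 209 CPM in the old library against 28.8 and 22.4 CPM in stromal-like cells (log2 change 3.58, SE 0.28, edgeR adjusted p = 1.28e-09). Atp5b stood at 915 and 817 CPM (log2 change 2.38, SE 0.16, edgeR adjusted p = 1.97e-10). Uqcrfs1, the Rieske iron-sulfur protein of complex III, rose by 2.35, Cox5b of complex IV by 2.28, and Atp5g1, which encodes a c-ring subunit of the ATP synthase, by 2.21. The 3 that fell were the restricted isoforms Cox4i2 (-4.51), Ndufa4l2 (-3.39) and Cox7a1 (-3.19). The complex II genes rose by 0.67 (Sdha), 1.16 (Sdhb), 0.78 (Sdhc) and 1.64 (Sdhd).

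Of the mitochondrial genes, 12 of 13 were higher in erythroid-like cells, from 0.49 for mt-Nd3 to 1.70 for mt-Co1, while mt-Cytb did not pass (log2 change 0.42, SE 0.21, edgeR adjusted p = 0.0782). mt-Co1 was at 8433 and 9518 CPM, both above the stromal-like 3943 and 4092 CPM. Scaled by totals alone, 6 mitochondrial and 66 nuclear members were higher and 4 nuclear members lower, while the share of all calls that were higher fell from 43.1% to 30.7%. Of the 14750 genes, 3203 were then called higher and 7237 lower. Of the TCA cycle genes, 10 of 13 were higher, of the carriers 9 of 11, and of the wider list of assembly factors and regulators of the complexes 26 of 46, with 5 lower. Slc25a4, an ADP/ATP carrier, fell (log2 change -3.37, SE 0.25, edgeR adjusted p = 5.06e-10) while its relative Slc25a5 rose (log2 change 1.97, SE 0.18, edgeR adjusted p = 1.25e-08). Glycolytic genes went 4 up and 8 down of 16, and all 6 cycling genes were higher, whose part in the rise of the set was not tested.

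In B lineage-like cells the nuclear set rose and the mitochondrial set did not. In this class 54 of the 91 tested nuclear members were higher and 2 lower, where 23.4% and 33.5% of all genes were called higher and lower, with a median change of 0.66. Of the 13 mitochondrial genes none was higher and 6 were lower, with a median of -0.45. The median of all genes was -0.42, so the mitochondrial median lay near it and the nuclear median above it. Cox5a, a complex IV subunit, was at 639 CPM in the young and 522 CPM in the old library against 134 and 113 CPM in stromal-like cells (log2 change 2.21, SE 0.20, edgeR adjusted p = 2.65e-08). Uqcrfs1 rose by 1.71, and Ndufs8 and Ndufa12 of complex I rose by 1.47 and 1.5. Cox6a2 was called at 3.87 on 8 and 3 UMIs in all, so its size is uncertain. The nuclear members that fell were again Cox4i2 (-4.42) and Ndufa4l2 (-3.43), which had 0 and 4 and 5 and 3 UMIs in the young and old class. The mitochondrial genes that fell were mt-Nd4l (-1.02), mt-Nd4 (-0.82), mt-Nd2 (-0.72), mt-Atp8 (-0.69), mt-Cytb (-0.69) and mt-Nd3 (-0.66). mt-Nd4, for instance, was at 1738 and 1416 CPM in B lineage-like and 2839 and 2641 CPM in stromal-like cells, so the classes did not overlap. The complex IV core genes had values above 0 that did not pass, 0.36 for mt-Co1, 0.06 for mt-Co2 and 0.16 for mt-Co3. Of the complex II genes, 2 of 4 were higher, with changes of 0.24 (Sdha), 0.96 (Sdhb), -0.071 (Sdhc) and 0.92 (Sdhd). The class held only 48 cells in the old library, and 6 of 6 cycling genes were higher in it. Scaled by totals alone, 54 nuclear members were higher and 7 mitochondrial members lower, where 3401 of the 14750 genes were called higher and 4818 lower.

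In neutrophil-like cells more nuclear members were lower than higher in the main fit and under totals alone, and the number of calls depended on the scaling. There 13 of the 91 tested nuclear members were higher and 29 lower, where 19.8% and 20.6% of all genes were called higher and lower, with a median of -0.20 that is 0.14 above the median of all genes. On the CPM scale the median of the young mouse was -0.66 and that of the old mouse -1.36, and scaled by totals alone 0 nuclear members were higher and 73 lower. That scaling moved the median of all genes from -0.33 to -1.16 and the share of calls that were higher from 49.0% to 18.9%. Of the 14750 genes, 1784 were then called higher and 7668 lower. With median-of-ratios factors the median of all genes was -0.21 and 56.8% of all calls were higher. The directions of the members under those factors are not given here. By complex, 15 of 36 genes of complex I were lower and 3 higher. Ndufv1, which binds NADH and FMN at the entry of complex I, fell from 67.0 and 64.2 CPM in stromal-like cells to 11.8 and 7.08 CPM (log2 change -2.01, SE 0.21, edgeR adjusted p = 3.10e-07). The assembly factors Ndufaf1, Ndufaf2 and Ndufaf4 fell by 2.57, 1.43 and 1.36 on the log2 scale, whereas Ndufaf7 was higher by 0.98. Cox4i2 was lower (-1.30), and Atp5md (1.09) and Atp5l (0.76) of the ATP synthase and Ndufb7 (0.77) of complex I were higher, but Atp5l and Ndufb7 changed sign when totals alone set the scale. Of the mitochondrial genes mt-Co1 (0.85), mt-Nd6 (0.69), mt-Co2 (0.53) and mt-Atp8 (0.53) were called higher, and under totals alone none was higher and 8 were lower. Of the other lists, 12 of 16 glycolytic genes were higher, such as Pkm (log2 change 3.66, SE 0.30, edgeR adjusted p = 1.18e-08), while the TCA cycle had 3 higher and 6 lower of 13. The wider list of assembly factors had 4 higher and 14 lower of 46.

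In the other 3 mesenchymal classes compared, fewer nuclear members were called than in the pericyte or smooth muscle-like class. In osteoblast-like cells, 17 of the 91 tested nuclear members were higher and 4 lower, where 18.5% and 17.2% of all genes were called higher and lower. In chondrocyte-like cells, 13 of the 91 tested nuclear members were higher and 7 lower, where 19.2% and 18.2% of all genes were called higher and lower. In fibroblast-like cells, 15 of the 91 tested nuclear members were higher and 6 lower, where 20.3% and 19.1% of all genes were called higher and lower. By edgeR these shares of the members lay near or below those of all genes. DESeq2 called 49 nuclear members higher and 4 lower in osteoblast-like, 21 and 9 in chondrocyte-like and 33 and 7 in fibroblast-like cells, where of the 14750 genes it called 3203 higher and 2400 lower, 3218 and 2516, and 3276 and 2821, so the osteoblast-like and fibroblast-like counts depend on the tool. Medians of the nuclear members were 0.24, 0.042 and 0.15 in these classes, and under totals alone they were 0.013, -0.30 and -0.06, with 3, 2 and 3 members higher and 6, 23 and 7 lower. Of the 14750 genes, totals alone called 2027 higher and 3782 lower in osteoblast-like cells. The same counts were 1994 and 4366 in chondrocyte-like and 2238 and 3875 in fibroblast-like cells. No mitochondrial gene passed in osteoblast-like or chondrocyte-like cells by edgeR, where 2 and 2 of 13 had an unadjusted p under 0.05 and DESeq2 called 3 and 0. In fibroblast-like cells mt-Nd6 was lower (log2 change -0.53, SE 0.20, edgeR adjusted p = 0.0455), from 36.8 and 24.9 CPM to 23.3 and 14.0 CPM. This call was lost with median-of-ratios factors, without a filter on low counts, after thinning, at clustering resolution 1.2, without mouse as a block and without the shallowest stromal-like cluster, with log2 changes from -0.54 to -0.35. mt-Nd6 is the single gene read from the light strand, so antisense RNA of the heavy-strand genes could share its reads.

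The genes with large changes in these classes were mostly the paralogue pairs. Chondrocyte-like cells had Ndufa4l2 at 932 CPM in the young and 1639.9 CPM in the old library against 29.5 and 63.2 CPM in stromal-like cells (log2 change 5.15, SE 0.41, edgeR adjusted p = 9.38e-09). Its partner Ndufa4 fell from 584 and 481 CPM to 164 and 140.4 CPM (log2 change -1.47, SE 0.19, edgeR adjusted p = 5.26e-06). Cox4i2 rose from 33.9 and 53.5 CPM to 232 and 215 CPM (log2 change 2.71, SE 0.30, edgeR adjusted p = 5.90e-07), while its partner Cox4i1 did not pass (log2 change 0.38, SE 0.16, edgeR adjusted p = 0.0715). For these 3 called genes both chondrocyte-like values lay beyond both stromal-like values. Further members that fell there were Cox6b2 (-1.57), the complex I subunits Ndufa3 (-1.47) and Ndufs4 (-1.21), and Atp5g3 (-0.56), whereas Cox7a2l (0.64), Ndufa12 (0.58) and Atp5g2 (0.58) rose. Complex II genes had changes of -0.36 (Sdha), -0.029 (Sdhb), -0.48 (Sdhc) and 0.15 (Sdhd), of which 0 passed as higher and 1 as lower. In the same cells 14 of 16 glycolytic genes were higher, led by Pkm (log2 change 3.51, SE 0.30, edgeR adjusted p = 2.28e-08), and 5 of 8 hypoxia genes, led by Egln3, an oxygen-sensing prolyl hydroxylase (log2 change 5.23, SE 0.82, edgeR adjusted p = 5.06e-05). Of the TCA cycle genes none was higher and 3 were lower of 13, such as Suclg2 (log2 change -0.65, SE 0.21, edgeR adjusted p = 0.0228).

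Osteoblast-like cells also had more Ndufa4l2 (log2 change 2.10, SE 0.36, edgeR adjusted p = 1.24e-04) and less Ndufa4 (-0.85). Atp5e (0.80) and Atp5g1 (0.73) of the ATP synthase, Ndufa1 (0.71) of complex I and Cox6a1 (0.70) and Cox4i1 (0.48) of complex IV rose, and Cox7a1 (-1.62), Cox6b2 (-0.79) and Ndufs4 (-0.63) fell. Fibroblast-like cells shared the rise of Ndufa4l2 (log2 change 1.82, SE 0.36, edgeR adjusted p = 3.99e-04) and the fall of Ndufa4 (-0.86), Ndufa3 (-0.78) and Ndufs4 (-0.61) against stromal-like cells, but their Cox4i2 fell, from 33.9 and 53.5 CPM to 3.77 and 6.87 CPM (log2 change -2.84, SE 0.32, edgeR adjusted p = 7.39e-07). Cox8b, the muscle form of a complex IV subunit, was called higher in them (log2 change 3.56, SE 0.83, edgeR adjusted p = 0.00385) at low levels of 2.38 and 4.89 CPM, from 53 and 79 UMIs, and Cox7a1 fell by 1.21 on the log2 scale. Uqcrh (0.63) of complex III, Cox7a2l (0.79) and Cox4i1 (0.58) were the other leading members that rose. Complex II genes changed little in osteoblast-like and fibroblast-like cells, with Sdha at -0.37 and 0.15, Sdhb at 0.28 and 0.27, Sdhc at -0.081 and -0.034, and Sdhd at 0.33 and 0.34, of which 0 and 0 passed.

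**Figure D2:**
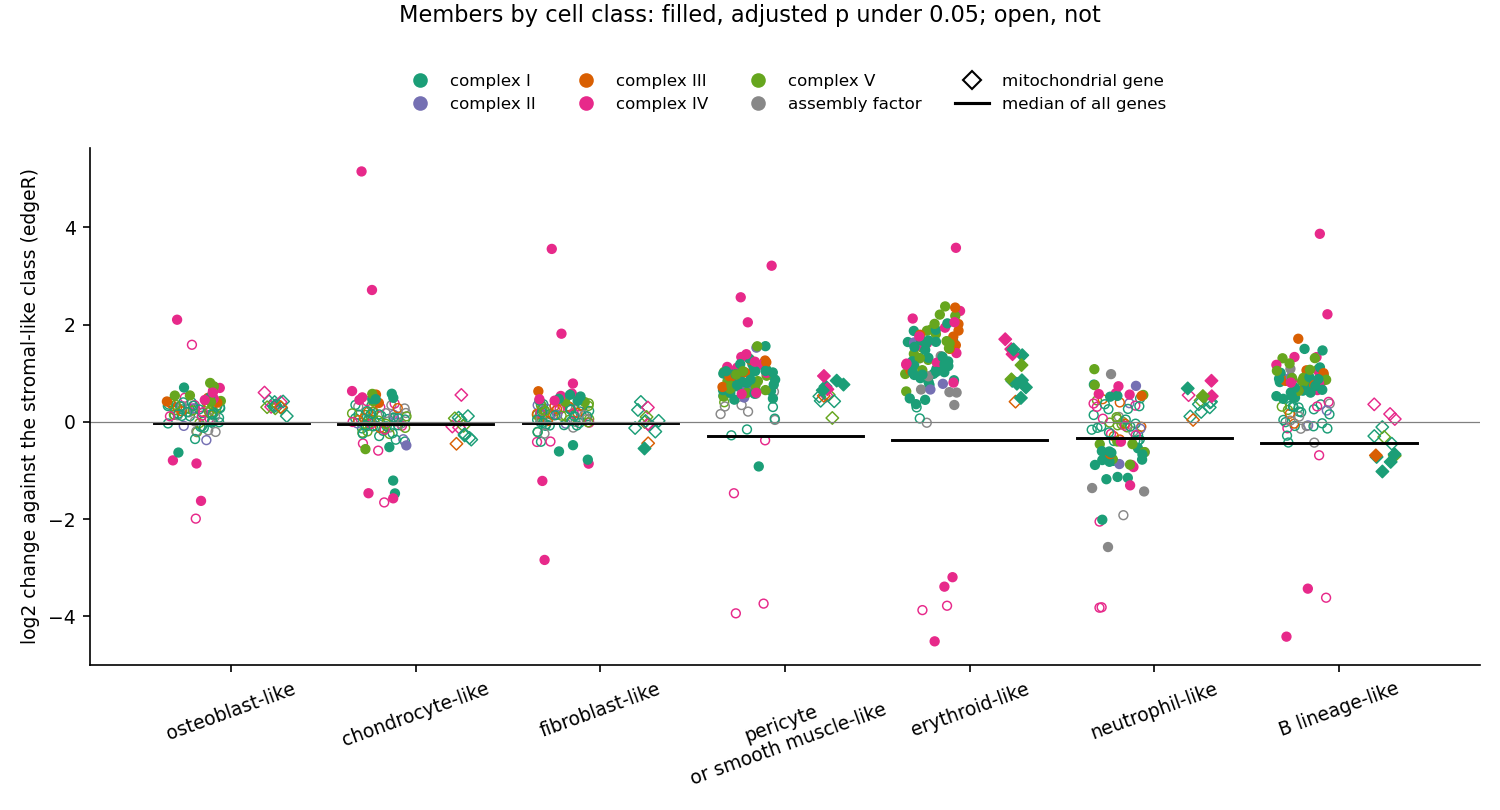
Log2 change of each tested member against the stromal-like class (edgeR, 2 mice), 1 column of points per class, with nuclear genes as circles and mitochondrial genes as diamonds, colored by complex, filled where the adjusted p was under 0.05, and a black line at the median of all genes. Nearly all nuclear members lie above that line in the pericyte or smooth muscle-like and erythroid-like classes, and the point at 5.15 in the chondrocyte-like column is Ndufa4l2.

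Set within their pairs, the isoforms gave a share that needs no scaling between classes. Of the UMIs of Ndufa4 and Ndufa4l2 together, Ndufa4l2 made up 85.0% (95% interval 83.9 to 86.1) in the young and 92.1% (95% interval 91.2 to 92.9) in the old chondrocyte-like class. The share was 60.4% and 70.1% in tendon or periosteum-like cells, 56.5% and 67.2% in joint lining-like cells and 51.2% and 50.1% in pericyte or smooth muscle-like cells. It was 40.4% and 37.9% in osteoblast-like, 28.9% and 41.0% in fibroblast-like and 4.81% (95% interval 4.39 to 5.26) and 11.6% (95% interval 10.9 to 12.3) in stromal-like cells. In the erythroid-like, progenitor-like, B lineage-like and megakaryocyte-like classes it did not exceed 0.901%, and in neutrophil-like cells it was 11.9% and 10.5%. The share was higher in the old library in 5 of the 7 mesenchymal classes, the exceptions being the osteoblast-like and pericyte or smooth muscle-like classes, which is 1 mouse against 1 mouse. Cox4i2 made up 27.6% and 28.9% of its pair with Cox4i1 in chondrocyte-like cells and 14.6% and 20.6% in pericyte or smooth muscle-like cells, against 5.49% and 9.30% in stromal-like and 0.513% and 0.974% in fibroblast-like cells. Cox6b2 made up 21.8% and 24.9% of its pair with Cox6b1 in erythroid-like and 29.4% and 28.5% in progenitor-like cells, where all other classes stayed at or below 7.81%. Of the pair Cox7a1 and Cox7a2, Cox7a1 held the most in the old pericyte or smooth muscle-like class, with 5.10% (95% interval 3.14 to 7.77), while Cox6a2 did not exceed 1.65% of its pair with Cox6a1, nor Cox8b 0.832% of its pair with Cox8a, in any of the 12 classes. Droplets can carry free RNA of other cells, and its part in the small shares was not tested.

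**Figure D3:**
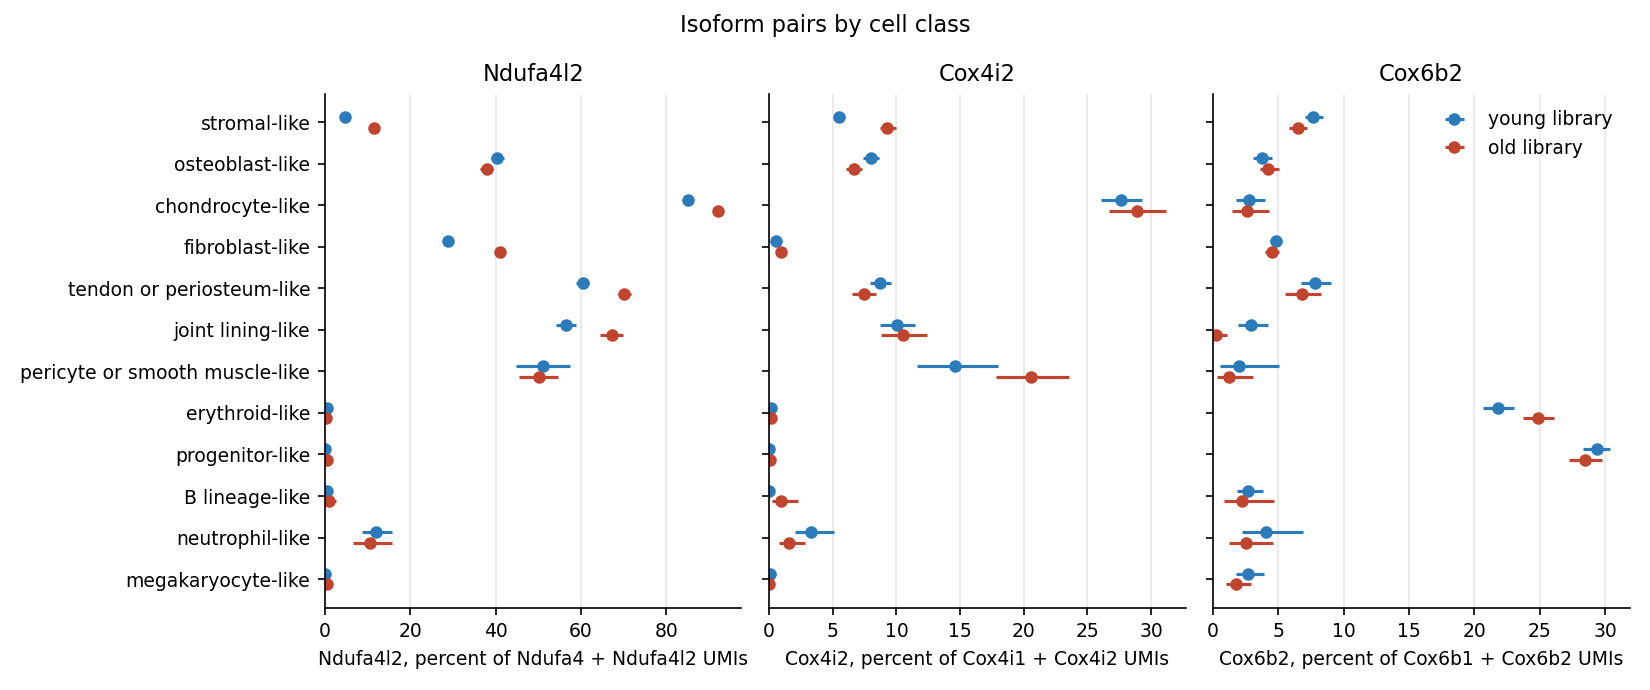
Share of each restricted isoform among the UMIs of its pair by class, 1 point per library with its exact 95% binomial interval, for Ndufa4l2, Cox4i2 and Cox6b2. Ndufa4l2 runs from at most 0.901% in 4 blood classes to 92.1% in old chondrocyte-like cells, and Cox6b2 is high in the erythroid-like and progenitor-like classes.

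The nuclear members are known to be served by shared promoter elements, the binding site of nuclear respiratory factor 1 (NRF1) and ETS-type sites bound by GABP, so their promoters were read. RefSeq entries (GRCm38.p6, 250 bases before to 50 bases after the start) were matched by symbol for 75 of the 93 nuclear members. The letters GCGCA, any base, then GCGC make up an NRF1 site and were searched on both strands. They were found for 19 of 75 members (25.3%) and for 5.19% of the 27025 genes with such an entry. A gene with several entries was counted if any of them matched. CCGGAAG, an ETS site, was in 19 (25.3%) and in 9.93% of all. Either was in 34 members (45.3%) against 14.0% of all, and both in 4, which were Atp5h, Atp5k, Cox6a1 and Sdhd. ACGTG, the core of a hypoxia response element, was in 17 members (22.7%) against 21.8% of all. A match says that the letters are in the window and not that a factor binds there. The promoters of Cox6a1 and Atp5h are shown because both motifs are in them, and those of the pair Cox6b1 and Cox6b2 because Cox6b2 took its largest shares of the pair in the erythroid-like and progenitor-like classes. All lie on the minus strand, at chr5:115348909-115349208, chr11:115419870-115420169, chr7:30626065-30626364 and chr7:4753045-4753344, and are written 5′ to 3′ with NRF1 and ETS letters in capitals on whichever strand they match.
Cox6a1: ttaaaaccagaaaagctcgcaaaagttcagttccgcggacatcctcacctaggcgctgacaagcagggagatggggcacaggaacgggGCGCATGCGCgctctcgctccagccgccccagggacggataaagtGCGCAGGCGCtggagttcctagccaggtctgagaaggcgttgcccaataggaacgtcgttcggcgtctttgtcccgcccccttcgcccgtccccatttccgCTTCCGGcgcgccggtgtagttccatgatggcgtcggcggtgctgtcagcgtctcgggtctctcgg
Atp5h: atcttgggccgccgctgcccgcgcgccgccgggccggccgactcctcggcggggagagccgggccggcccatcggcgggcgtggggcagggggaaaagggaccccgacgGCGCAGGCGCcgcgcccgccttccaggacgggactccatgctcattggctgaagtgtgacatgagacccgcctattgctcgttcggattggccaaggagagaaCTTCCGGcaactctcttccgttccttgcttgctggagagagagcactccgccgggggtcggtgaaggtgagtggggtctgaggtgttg
Cox6b1: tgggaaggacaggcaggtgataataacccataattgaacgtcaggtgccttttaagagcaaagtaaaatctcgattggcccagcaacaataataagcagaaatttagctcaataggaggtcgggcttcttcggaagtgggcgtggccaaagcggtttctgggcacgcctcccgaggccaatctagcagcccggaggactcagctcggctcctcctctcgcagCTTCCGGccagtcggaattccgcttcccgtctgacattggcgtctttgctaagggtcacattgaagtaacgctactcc
Cox6b2: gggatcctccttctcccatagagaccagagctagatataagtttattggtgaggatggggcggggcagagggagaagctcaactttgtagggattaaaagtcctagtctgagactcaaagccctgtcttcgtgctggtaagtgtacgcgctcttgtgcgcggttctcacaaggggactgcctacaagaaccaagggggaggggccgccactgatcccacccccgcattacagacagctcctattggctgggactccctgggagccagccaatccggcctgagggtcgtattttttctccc

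In Cox6a1 the first run in capitals matches the NRF1 letters on both strands, the next matches them on the strand shown, and the last is the ETS site, so 3 NRF1 matches were counted. Atp5h, which encodes a peripheral stalk subunit of the ATP synthase, has 1 match of each kind. Cox6b1 has an ETS match and no NRF1 match, and the window of Cox6b2 holds neither. In erythroid-like against stromal-like cells all of these genes rose, Cox6a1 by 2.13, Atp5h by 1.61, Cox6b1 by 1.57 and Cox6b2 by 3.58, each with an edgeR adjusted p under 0.05. A link between the motifs and these changes was not tested. Ndufa4l2, Cox4i1 and Cox4i2 are not among the matched entries.

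The study asked how CD24+ cells of bone differ from CD24- cells, and this was put to the members in sums of CD24+ and CD24- cells of the 7 mesenchymal classes in each mouse. The young mouse gave 630 CD24+ and 7576 CD24- cells, the old mouse 223 and 4061. The mitochondrial set was higher in CD24+ cells of both mice, at 3.49% of UMIs against 2.94% in the young mouse and 3.55% against 2.78% in the old mouse, the widest exact interval being 3.53 to 3.57. The nuclear set stood at 1.72% and 1.72% in the young and 1.67% and 1.67% in the old mouse. Per cell, the median mitochondrial shares of CD24+ and CD24- cells lay closer together, at 3.05% and 2.74% (young) and 2.81% and 2.58% (old). CD24+ cells more often held over 10% mitochondrial UMIs, at 5.397% against 3.102% of young and 10.31% against 4.925% of old cells. The summed mitochondrial shares therefore also reflect a larger part of cells with high values. By edgeR with mouse as a block, 11 of 13 mitochondrial genes were higher and none lower, where 6.95% of the 15170 tested genes were called higher and 6.76% lower, and the median change was 0.31. Of the 91 nuclear members 6 were higher and 1 lower, and their median was 0.07.

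mt-Co1 was at 4219 CPM in CD24- and 5409.8 CPM in CD24+ cells of the young mouse and 4403 and 6329 CPM in those of the old mouse (log2 change 0.53, SE 0.058, edgeR adjusted p = 3.67e-04). The 2 mice moved the same way, and both CD24+ values were above both CD24- values. mt-Co3 (0.44), mt-Co2 (0.42), mt-Atp6 (0.38), mt-Nd5 (0.35), mt-Cytb (0.31), mt-Nd4 (0.31), mt-Nd1 (0.30), mt-Atp8 (0.27), mt-Nd4l (0.26) and mt-Nd2 (0.24) also rose, so all complexes with a mitochondrial subunit took part. mt-Nd3 (log2 change 0.17, SE 0.061, edgeR adjusted p = 0.117) and mt-Nd6 (log2 change 0.36, SE 0.11, edgeR adjusted p = 0.0642) did not pass. Among the nuclear members Cox4i2 rose, with 40.2 CPM in CD24- and 82.4 CPM in CD24+ cells of the young mouse and 44.7 and 83.0 CPM in those of the old mouse (log2 change 1.05, SE 0.082, edgeR adjusted p = 5.80e-05). Ndufa4l2 (log2 change 0.38, SE 0.067, edgeR adjusted p = 0.00532) rose too, as did Ndufa1 (0.26), Atp5g2 (0.22) and Atp5e (0.21), and Ndufs4 fell (log2 change -0.29, SE 0.078, edgeR adjusted p = 0.0396). Cox6a2 was called at 4.36 on 17 and 6 UMIs over all cells of these classes. The skeletal muscle marker list moved with it, since its 5 tested markers of 9 were all higher in CD24+ cells and its summed level went from 9.10 to 167 CPM in the young while the old mouse went from 6.85 to 50.5 CPM, with 3 and 4 markers at 0 in CD24+ cells. Its part in the rise of Cox6a2 and of the mitochondrial genes was not tested. The B lineage list had 4 of 5 tested markers higher, at summed levels of 3.27 and 16.9 CPM in young and 1.60 and 8.82 CPM in old CD24- and CD24+ cells. Of the erythroid list 2 of 9 markers were higher, and its summed level was 665 and 632 CPM in young and 177 and 319.9 CPM in old CD24- and CD24+ cells, and 46.7 and 128 CPM and 73.8 and 129 CPM within the osteoblast-like class. The neutrophil list had 0 of 7 tested markers called, at 32.6 and 21.4 CPM in young and 60.4 and 246 CPM in old cells, and the part of these lists in the mitochondrial result was not tested.

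The make-up and depth of the CD24 groups moved with this result. Osteoblast-like cells were 38.7% and 43.5% of CD24+ but 12.7% and 13.1% of CD24- cells, and median UMIs were 9084 and 13845 against 6148 and 10004. Chondrocyte-like cells, which held more Cox4i2 and Ndufa4l2 than stromal-like cells, were 17.1% and 13.5% of CD24+ but 4.61% and 3.47% of CD24- cells. The part of this make-up in the rise of Cox4i2 and Ndufa4l2 by CD24 was not tested. Within classes the mitochondrial share of stromal-like cells was 3.95% in CD24+ and 3.02% in CD24- cells of the young mouse, and 4.43% and 3.00% in the old mouse. In fibroblast-like cells the same shares were 4.13% and 2.73%, and 4.38% and 2.36%. In the young mouse the share was higher in CD24+ cells also in chondrocyte-like (2.63% against 2.30%), tendon or periosteum-like (3.41% against 3.09%), joint lining-like (3.96% against 2.89%) and pericyte or smooth muscle-like cells (6.02% against 4.69%), and lower in osteoblast-like cells (3.39% against 3.46%). In the old mouse it was higher in chondrocyte-like (2.41% against 2.26%) and osteoblast-like cells (3.50% against 3.29%) and lower in tendon or periosteum-like (2.50% against 2.61%), joint lining-like (2.84% against 2.89%) and pericyte or smooth muscle-like cells (2.69% against 4.16%), the last 3 from 15, 3 and 5 CD24+ cells. When each class of each mouse was a block of its own, no member was called in either set, where 9 of all 9011 genes tested were called higher and 2 lower, with 4 mitochondrial and 3 nuclear members at an unadjusted p under 0.05 and a median of 0.16 for the mitochondrial set. Without mouse as a block 0 mitochondrial and 1 nuclear member were called, where of the 15170 genes 120 were called higher and 142 lower. The median change of the mitochondrial set was then 0.31. Under a 10% mitochondrial limit 7 mitochondrial genes were called, where of 15118 genes 1160 were called higher and 1119 lower. Their set had a median change of 0.21 under that limit, against 0.31 in the main fit. DESeq2 called 8 mitochondrial and 3 nuclear members, where of the 15170 genes it called 562 higher and 479 lower.

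Inside the osteoblast-like class no member was called by CD24. The mitochondrial share was 3.39% in CD24+ and 3.46% in CD24- cells of the young mouse and 3.50% and 3.29% in the old mouse, in opposite directions. By edgeR none of 88 nuclear and 13 mitochondrial members passed, where 1.16% and 1.15% of the 11885 tested genes were called higher and lower, and 2 nuclear and 1 mitochondrial members had an unadjusted p under 0.05. DESeq2 called none either. Ndufa4l2 had the value -0.40 (SE 0.11, edgeR adjusted p = 0.0704), whereas over all mesenchymal classes it had risen. The 13 mitochondrial genes ranged from -0.39 for mt-Nd6 to 0.11 for mt-Co1. Of the pathway lists, 6 of 16 glycolytic genes, such as Pkm (log2 change 0.50, SE 0.064, edgeR adjusted p = 8.37e-04), and 3 of 6 cycling genes, led by Mki67 (log2 change 2.02, SE 0.13, edgeR adjusted p = 2.20e-05), were higher in CD24+ cells over the mesenchymal classes, 3 of 7 hypoxia genes were lower, and of the 46 assembly factors and regulators none was called (3 at an unadjusted p under 0.05). In the osteoblast-like class no gene of these lists was called.

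**Figure D4:**
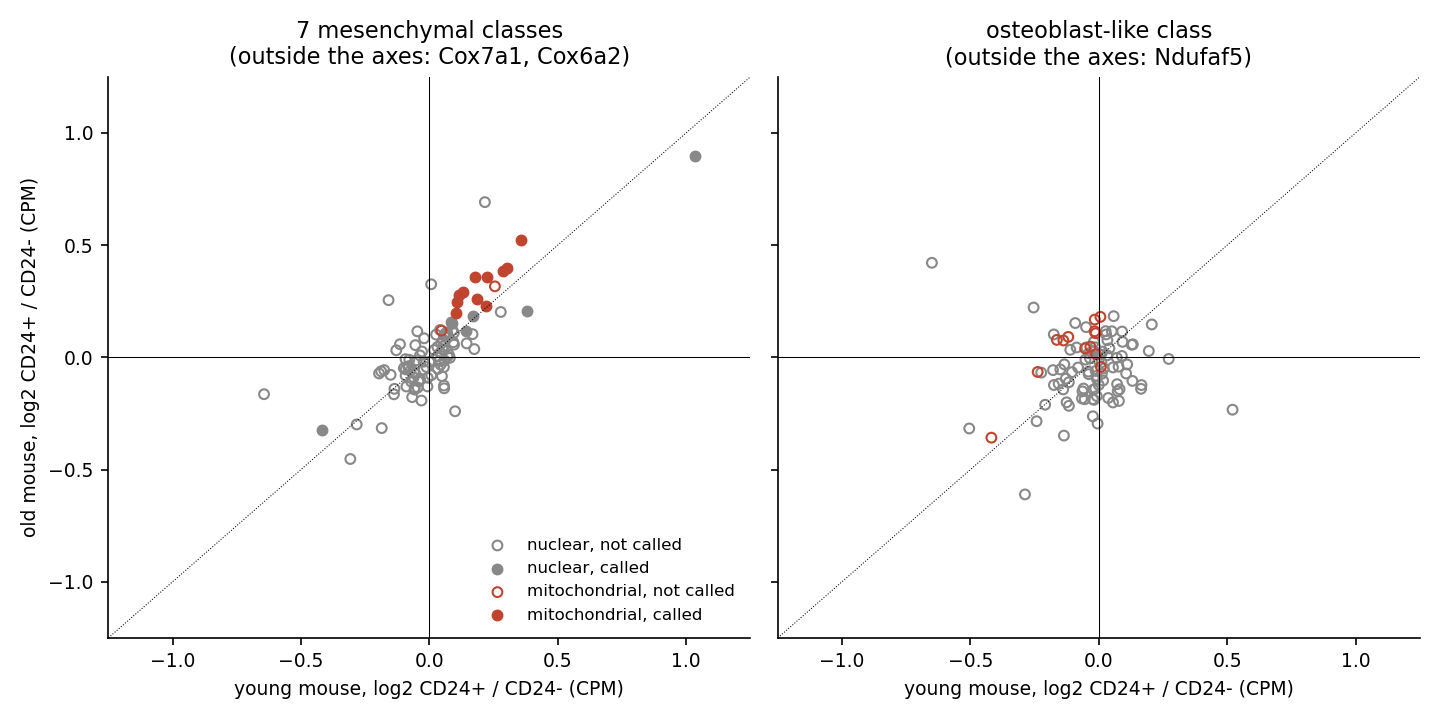
Log2 ratio of CPM in CD24+ to CD24- cells for each member in the young (x axis) and the old mouse (y axis), over the 7 mesenchymal classes (left) and in the osteoblast-like class (right), filled where the edgeR adjusted p was under 0.05. On the left the red mitochondrial genes all lie in the upper right part, and on the right they scatter about 0 with none called.

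The old library was set against the young one over the summed mesenchymal classes and within each class, as values of 2 mice without a test. Over the mesenchymal classes the nuclear set made up 1.72% and 1.67% (log2 ratio -0.038, -0.042 to -0.034) of young and old UMIs and the mitochondrial set 3.00% and 2.83% (log2 ratio -0.085, -0.088 to -0.082), the ranges being 95% counting intervals. By class, the nuclear set was lower in the old library in 9 of 12 classes and in 4 of the 7 mesenchymal ones, and the mitochondrial set in 9 of 12 and in 7 of 7. The largest mitochondrial differences among mesenchymal classes were in tendon or periosteum-like cells, at 3.12% and 2.60% (log2 ratio -0.26, -0.28 to -0.25), pericyte or smooth muscle-like cells, at 4.81% and 4.01% (log2 ratio -0.26, -0.29 to -0.23), and fibroblast-like cells, at 2.80% and 2.43% (log2 ratio -0.20, -0.21 to -0.19). Stromal-like cells differed in the nuclear set, at 1.75% and 1.62% (log2 ratio -0.11, -0.12 to -0.11), and little in the mitochondrial set, at 3.07% and 3.04% (log2 ratio -0.015, -0.021 to -0.0091). The sign of the mitochondrial difference over all mesenchymal cells turned when cells were thinned to 2000 UMIs (0.054) or when shares were averaged over cells (0.0496) on the log2 scale.

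Of 90 nuclear members with at least 100 UMIs in these classes, 2 were higher and none lower by over 1.5-fold in the old library, where 4.09% of the 13590 genes at that depth were higher and 3.06% lower. They were Cox7a1, with 2.18 CPM in the young and 3.92 CPM in the old library, and Cox8b, with 1.41 and 2.43 CPM, both tissue-restricted forms at low level. The median of the nuclear members was -0.053, against 0.012 for all genes, and 61 were lower and 29 higher. Of all 13590 genes at that depth, 6358 were lower and 7232 higher. Of the 13 mitochondrial genes 11 were lower and 2 higher, with a median of -0.11, and mt-Nd6 passed 1.5-fold, at 29.7 CPM in the young and 19.2 CPM in the old library (log2 ratio -0.63, -0.74 to -0.52). mt-Nd2 had -0.33 and mt-Nd4 -0.17, whereas mt-Co1 (0.06) and mt-Nd3 (0.092) were the 2 that were higher.

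The balance among the mitochondrial genes differed between the mice, for some genes in the same direction in nearly every class and for others not. As a share of the mitochondrial UMIs of the mesenchymal classes, mt-Co1 took 14.5% in the young library and 16.0% in the old one, and that share was higher in the old library in 12 of 12 classes. mt-Co3, which went from 16.2% to 16.7%, was higher in 11 of 12, and mt-Nd3 in 10. The complex I genes mt-Nd2 (5.68% and 4.79%), mt-Nd4 (8.56% and 8.07%), mt-Nd5 (1.90% and 1.80%) and mt-Nd6 (0.0991% and 0.0679%) were each lower in 11 of 12 classes. mt-Co2 (13.2% and 13.1%) and mt-Atp6 (17.1% and 16.4%) were lower in 10 classes. The other 4 were mixed, with mt-Nd1 lower in 8 and higher in 4, mt-Atp8 and mt-Nd4l lower in 4 and higher in 8, and mt-Cytb lower in 8 classes although its share of the mitochondrial UMIs summed over the mesenchymal classes went from 14.0% to 14.6%. The classes of a mouse come from 1 library, so they are not 12 replicates, and age cannot be told apart from the mouse or its library. The megakaryocyte-like class was the exception for mt-Nd6, on 3 and 5 UMIs. mt-Atp8 with mt-Atp6 and mt-Nd4l with mt-Nd4 are each read from a shared transcript with overlapping genes, so counts within those pairs can be split unevenly.

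**Figure D5:**
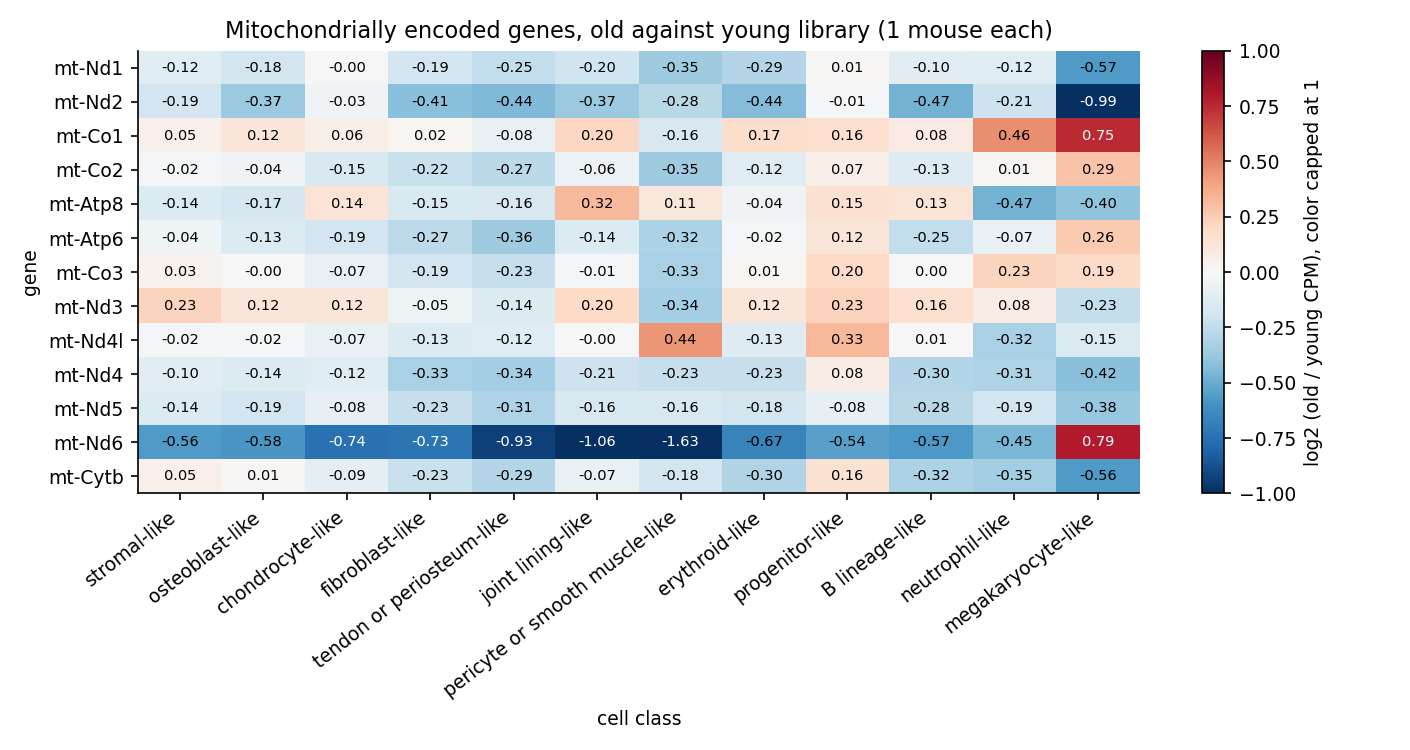
Log2 ratio of CPM in the old to the young library (1 mouse each) for the 13 mitochondrial genes (rows) in the 12 classes (columns), with red higher and blue lower in the old library and the color capped at 1. The mt-Nd6 row is blue in all classes but the megakaryocyte-like one, and mt-Co1 is red in most.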

How the data were processed

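CITE-seq libraries of the 2 mice (RNA and 1 CD24 antibody each) were deposited as raw UMI counts per barcode, made by the authors with Cell Ranger (6.1.1 per the file headers) against mm10, with no normalization; the submitters' notes also name R 4.0.3 and Seurat 4.0. Barcodes with under 200 genes or over 20% mt- UMIs were dropped, as in the study, and doublets called with scanpy 1.11.5 (2.67% and 1.02%) removed. Libraries were normalised with SCTransform, joined by anchors and clustered with Seurat 5.3.0 (3000 variable features, from which 15 members were removed, 30 components, resolution 0.8), and clusters named from marker lists by at least 3 raised markers. CD24+ was an antibody count over the Otsu threshold of its library. UMIs were summed per mouse and group and tested two-sided with edgeR 4.0.16 (TMM, filterByExpr, mouse as block, since both sums of a pair come from the same mouse), with Benjamini-Hochberg adjustment; DESeq2 1.42.0 was an alternative. Each SE printed with an edgeR value is the size of the log2 change divided by the square root of its F statistic, so it is derived from the test. The fits were tested on simulated data. CD24 comparisons had 4 sums and 1 residual degree of freedom. Old against young used exact binomial or Poisson-based intervals. Intervals cover counting error only. Depth was 77411705 young and 65543384 old UMIs in kept cells. Members, lists and tests were chosen with earlier results of these data known. Named genes were the 5 highest and 5 lowest called members of each comparison, the 13 mitochondrial genes, Sdha to Sdhd and the isoform pairs; by age, members past 1.5-fold with at least 100 UMIs. No other per-sample columns were present (0). Counts of near-identical copies, nuclear insertions of mitochondrial DNA and overlapping genes can be misassigned.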

Additional observations from a re-analysis of the deposited data

Results flagged for a closer look

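Ndufb1-ps, a row left out by its name, was counted at 264 CPM in the young and 297 CPM in the old library over all kept cells, a level within the range of complex I subunit genes that the rule took; whether its UMIs belong to a transcribed copy or to the subunit gene Ndufb1 was not tested. In an unnamed cluster of 286 young and 124 old cells that no comparison used, led by Pax7 and Des, which are known from muscle satellite cells, the muscle forms Cox6a2 and Cox8b were above their levels in all 12 named classes, and Cox7a1 was above all but the old pericyte or smooth muscle-like value. Cox6a2 was at 62.0 and 127 CPM in the young and old cells, Cox8b at 49.0 and 73.1 CPM and Cox7a1 at 27.4 and 26.8 CPM. Its mitochondrial share was 7.11% and 7.34% and its nuclear share 1.33% and 1.38%, at medians of 1950 and 2852 UMIs per cell, and 40.2% and 44.4% of its cells lay over 10% mitochondrial UMIs.

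Barcodes with at least 200 genes that were removed for more than 20% mitochondrial UMIs numbered 720 (young) and 824 (old) and had 38.5% and 39.5% mitochondrial UMIs, and of their other UMIs 0.985% and 0.849% fell on the nuclear members. In kept cells the nuclear members took 2.09% and 1.98% of the UMIs other than mitochondrial ones.

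In the osteoblast-like class 3 flagged members moved in opposite directions by CD24 in the 2 mice. They are examples and not a count over the tested members, and the share of all genes that did so is not given here. The log2 ratio of CD24+ to CD24- CPM of Cox4i2 was -0.655 in young and 0.416 in old cells, that of mt-Nd1 -0.163 and 0.0777, and that of mt-Co3 -0.0327 and 0.0475. Each mouse gives 1 ratio, and the difference between them was not tested.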

How the results depend on the processing

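Of 258 summary values under an alternative, 191 kept their direction and side of the threshold (counts within 1.5 times), 37 moved, 16 gained and 7 lost calls and 7 turned sign; of 3448 values of single members 3146 stayed, 145 lost and 130 gained the call and 27 turned sign. 3 alternatives were added after the data were seen: scaling by library totals alone, leaving out a shallow stromal-like cluster, and a mean over single classes. The cause of these changes was not tested. Pairing: both CD24 sums of a mouse come from 1 animal, and without the replicate block the CD24 comparison of the mesenchymal classes called 0 mitochondrial and 1 nuclear member in place of 11 and 7, the fibroblast-like class 0 mitochondrial genes in place of 1 and the neutrophil-like class 2 in place of 4; with mouse and class together as the block the CD24 comparison called 0 and 0. In that comparison DESeq2 called 3 nuclear members, keeping predicted doublets 4, and a 10% mitochondrial limit left 7 mitochondrial genes. In the osteoblast-like CD24 comparison 1 nuclear member passed with median-of-ratios factors, without a filter on low counts, under the 10% limit and with doublets kept, against 0. Against the stromal-like class, library totals alone gave 9, 10 and 73 nuclear calls in the osteoblast-like, fibroblast-like and neutrophil-like classes in place of 21, 21 and 42, and 7, 2, 6 and 8 mitochondrial calls in the chondrocyte-like, fibroblast-like, erythroid-like and neutrophil-like classes in place of 0, 1, 12 and 4. DESeq2 called 53 and 40 nuclear members in the osteoblast-like and fibroblast-like classes, and 3, 11 and 8 mitochondrial genes in the osteoblast-like, pericyte-like and neutrophil-like classes, against 0, 6 and 4. Thinning cells to 2000 UMIs left 5, 10 and 11 nuclear calls in the osteoblast-like, chondrocyte-like and fibroblast-like classes (main 21, 20 and 21) and gave 4 mitochondrial calls in the first and 2 in the pericyte-like class. The 10% limit gave 1, 1, 11 and 1 mitochondrial calls in the osteoblast-like, chondrocyte-like, pericyte-like and neutrophil-like classes. Mitochondrial calls were 1, 0 and 11 in the osteoblast-like, fibroblast-like and pericyte-like classes with median-of-ratios factors, 5 and 1 in the osteoblast-like and chondrocyte-like classes without a low-count filter, 2 and 1 with doublets kept, and 2, 1, 0 and 10 in the osteoblast-like, chondrocyte-like, fibroblast-like and pericyte-like classes without the shallow cluster. At clustering resolution 1.2 the fibroblast-like class had 0. Changes that turned sign under library totals alone were in the neutrophil-like class mt-Co1 -0.0579, Ndufb7 -0.0971, Atp5l -0.11, mt-Nd1 -0.46, mt-Nd2 -0.49, mt-Co2 -0.35, mt-Atp8 -0.30, mt-Atp6 -0.43, mt-Nd3 -0.76, mt-Nd4l -0.63, mt-Nd4 -0.56, mt-Nd5 -0.51, mt-Nd6 -0.14, mt-Cytb -0.81, Sdhb -0.45, Sdhd -0.096, Cox4i1 -0.46, Cox6a1 -0.28, Cox6b1 -0.51, Cox7a2 -0.52, Cox7a2l -0.80, Cox8a -0.30, and in the erythroid-like class mt-Nd3 (0.49 to -0.0566). Thinning turned Sdhd in the pericyte-like class (0.68 to -0.0152), the 10% limit mt-Nd6 in the neutrophil-like class (0.69 to -0.17), and keeping the members among the clustering genes turned Cox6a2 (-3.78 to 5.12) and Cox8b (-3.87 to 4.65) in the erythroid-like class, which were not called in the reported fit. Leaving out either mouse gave medians of -0.0327 to 0.0752 for the mitochondrial set by CD24 in the osteoblast-like class and -0.0416 to 0.0346 for the nuclear set in that class against the stromal-like one, so each sign rests on 1 mouse. For old against young, the nuclear log2 ratio over all kept cells (-0.0783) was -0.0724 under the 10% limit, -0.12 after thinning, -0.0974 as a mean of cells and -0.0895 with no mitochondrial limit, and over the mesenchymal classes (-0.0379) -0.0327, -0.0743 and -0.0689 for the first 3 and -0.0427 at resolution 1.2. The mitochondrial ratio over all kept cells (-0.0438) was -0.11 under the 10% limit and -0.0488 with doublets kept, and turned to 0.10 after thinning, 0.0654 as a mean of cells and 0.11 with no limit. Over the mesenchymal classes (-0.0852) it was -0.12, -0.10 with members among the clustering genes, -0.0913 at resolution 1.2 and -0.13 as a mean over classes, and turned to 0.054 after thinning and 0.0496 as a mean of cells. The chondrocyte-like comparison could not be computed with members among the clustering genes or at resolution 1.2, where no such class formed. Depth limits Cox6a2, Cox8b and Cox7a1, which rest on few UMIs, and the classes with under 100 cells in a library.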

Other observations

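Progenitor-like cells, marked by Myb and Gata2 and the deepest class with medians of 25122 and 34502 UMIs per cell, held more nuclear than mitochondrial UMIs of these genes, 1.44 and 1.28 for each mitochondrial UMI in the young and old libraries. Atp5g1, which encodes a c-ring subunit of the ATP synthase, was at 1120.5 and 979 CPM there and at 220.1 and 184 CPM in stromal-like cells, while its paralogue Atp5g3 was at 497 and 463 CPM and 231 and 206 CPM. Cox6b2 was at 291 and 275 CPM, above its erythroid-like 206 and 209 CPM. In megakaryocyte-like cells Atp5g1 was at 789 and 661 CPM and Atp5g2 at 874 and 848 CPM, whereas mt-Atp6 was at 405 and 486 CPM against 5259 and 5115 CPM in stromal-like cells. Both classes were picked after their values were seen, and these values have no test.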
